A study of Mus musculus with 4 samples.

Results

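The COP9 signalosome is a multisubunit enzyme that removes the ubiquitin-like protein NEDD8 from cullins. Cullins are the scaffolds of a large class of ubiquitin ligases and are active while NEDD8 is attached, so the complex and the NEDD8-conjugating enzymes set the cycle of ligase activation and disassembly. Its subunits fall into a pair with an MPN domain, of which Cops5 carries the metalloprotease centre, and a group with a PCI domain, which form the scaffold. In mice, T cell development in the thymus is impaired without Cops5, and peripheral T cells lacking Cops8 enter the cell cycle poorly after stimulation. The subunits were examined here in thymocytes in which 1 cullin, Cul3, had been targeted.

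The 9 genes Cops5, Cops6, Cops2, Cops4, Gps1, Cops3, Cops7a, Cops7b and Cops8 were taken by symbol. They are represented by every probe set that the platform annotation assigns to exactly 1 of these symbols, which gave 17 of the 45037 probe sets other than controls and 9 of 18193 named genes. Arrays labelled KO (2 arrays) came from mice with floxed Cul3 alleles that carried the CD4-Cre transgene, and arrays labelled LM (2 arrays) from mice with the same floxed alleles and no Cre. All mice were on a B6 background, and no age is given in the labels. The sorted cells were CD4 single-positive thymocytes that did not stain for CD25, the PBS57-loaded CD1d tetramer or the gamma delta receptor. CD4-Cre acts from the CD4 and CD8 double-positive stage of thymocyte development onward, so floxed alleles were exposed to Cre before the sorted stage. No array came from Cre carriers with intact Cul3, so what Cre itself does and what the loss of Cul3 does cannot be told apart. Whether the 2 samples of a genotype are different mice is not in the labels, so the spread between them may be technical. The p-values and standard errors (SE) come from limma, which draws each gene's spread between replicates toward that of genes of similar brightness. In the gene fit 2 degrees of freedom came from a gene's own arrays and 9.95 from the other genes.

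The data are linear intensities per probe set, an arbitrary brightness unit that orders arrays for 1 probe set but does not order different probe sets. For Cul3, probe set 1422794_at had 5380 and 5577 on the arrays labelled KO, against 5333 and 5724 on the arrays labelled LM. The groups overlapped there, and the 4 other Cul3 probe sets differed by -0.15 to 0.31, with 0 of the 5 called. A probe lying beyond the deleted exons would check nothing, and the genotypes therefore rest on the labels. All 8 T cell markers measured and all 4 markers of CD4 single-positive cells were above background on every array, while 4 of 5 B cell markers were below it on every array and 0 of 7 myeloid and 0 of 4 erythroid markers were above it on all 4. Some markers of other cell types were also above background on all 4 arrays, 3 of 4 for the CD8 lineage, 3 of 5 for double-positive and earlier thymocytes, 2 of 4 for NK, NKT and gamma delta T cells and 2 of 8 for stroma. The CD4 single-positive list summed to 15658.5 and 15240 on the arrays labelled KO, against 17865 and 16693 on the arrays labelled LM. Cd4, Ccr7 and Gata3 were lower on the arrays labelled KO and Zbtb7b was higher. The groups overlapped for none of these 4, beside 37.4% of all genes tested without overlap, and 0 were called. The double-positive list, led by Dntt, summed to 2510 and 3102 on the arrays labelled KO, against 2314 and 3129 on the arrays labelled LM. The CD8 list summed to 2397 and 2088 on the arrays labelled KO, against 2298.5 and 2151 on the arrays labelled LM. The 3 regulatory T cell markers, Foxp3, Il2ra and Ikzf2, summed to 4710.5 and 4053 on the arrays labelled KO, against 3053 and 2950 on the arrays labelled LM. With limma 0 of the 3 passed the test, where 0.275% of all genes tested did, and 2 lay at an unadjusted p below 0.05, beside 8.39% of all genes tested. The part of these cell types in the values below was not tested. In sorted bulk cells the number of cells of a type and the amount of RNA per cell cannot be told apart.

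No COP9 signalosome gene passed the test between the genotypes. Of the 9 genes tested with limma, 0 were called at an adjusted p of 0.05, where 31 of 11253 genes were called in all (0.275%), 15 with KO higher (0.133%) and 16 with KO lower (0.142%). At an unadjusted p below 0.05 lay 1 of the 9, Cops5, and 8.39% of all genes tested. Differences, given throughout as KO minus LM on the log2 scale of normalized intensity plus 16, ran from -0.43 for Cops5 to 0.17 for Cops2. Their median was -0.12, beside 0.00 for all genes tested, and 7 of the 9 were below 0, beside 49.7% of all genes tested. Quantile normalization gives the arrays the same distribution of values, so it largely sets these 2 values over all genes. In 8 of the 9 genes the larger gap between 2 replicates exceeded the difference between the genotypes, and the exception was Cops5. The groups did not overlap for 2 genes, Cops5 and Gps1, both lower on the arrays labelled KO. Among all genes tested the groups did not overlap for 37.4%, for 18.3% with KO lower and 19.1% with KO higher.

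**Figure D1:**
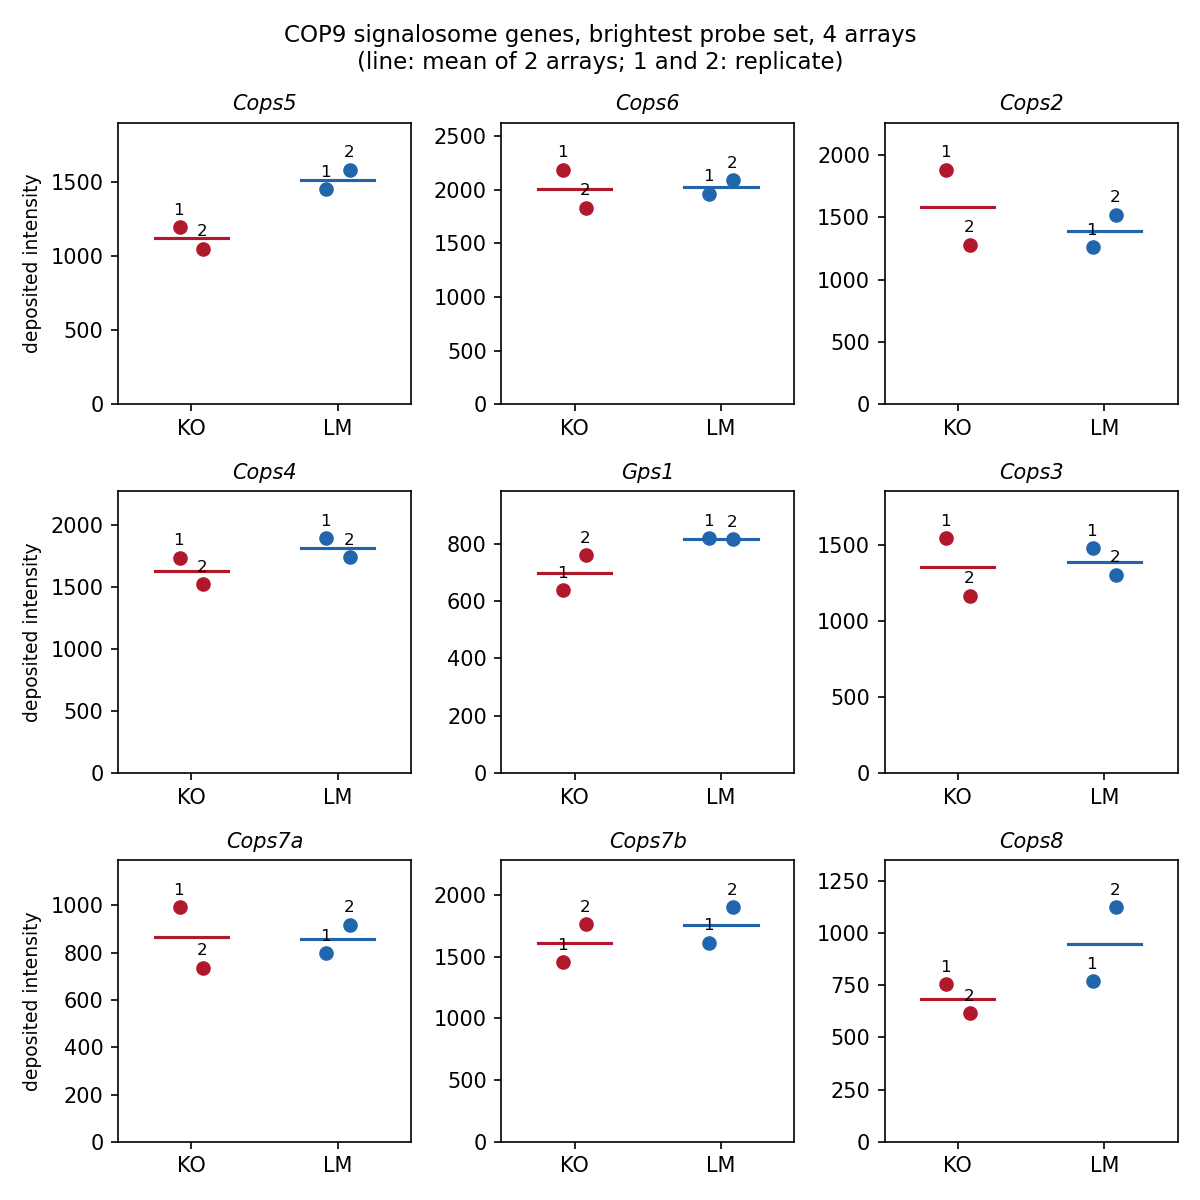
Deposited intensity (vertical axis, from 0, arbitrary units) of the brightest probe set of each COP9 signalosome gene on the 2 arrays labelled KO (red, left) and the 2 labelled LM (blue, right), with the replicate number above each point and a line at the mean of each group. Only Cops5 and Gps1 have all KO points below all LM points after normalization; on the deposited scale drawn here Cops4 (1733 against 1737) and Cops8 (755 against 768) are also just separate, and the other 5 genes overlap.

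Cops5 encodes the catalytic subunit, whose JAMM metal centre cleaves NEDD8 from cullins. Its brightest probe set, 1460171_at, read 1194 and 1048 on the arrays labelled KO, against 1448 and 1582 on the arrays labelled LM. Every KO value lay below every LM value, and the replicates of each genotype were closer to each other than to the other genotype. The difference was -0.43 ± 0.17 (SE, n = 2 each), a level at 74.4% of that on the LM arrays with a 95% interval of 57.9% to 95.6%. It did not pass the test (limma adjusted p = 0.480, unadjusted p = 0.0246), and 5.10% of all genes tested had a smaller p. The other probe set of the gene, 1439243_x_at, read 308 and 409 on the arrays labelled KO, against 485 and 309 on the arrays labelled LM. There the groups overlapped, and the difference was -0.12 ± 0.27 (SE). The suffix _x_at marks probe sets that the array's maker designed with probes that may also bind other transcripts, so its signal may not be Cops5 alone. With the mean of both probe sets the Cops5 difference was -0.28.

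Cops6 encodes the other MPN subunit, which lacks the metal centre and pairs with Cops5. Probe set 1451366_at read 2190 and 1834 on the arrays labelled KO, against 1965 and 2090 on the arrays labelled LM. The LM values lay between the KO values, so nothing separated the genotypes. The difference was -0.02 ± 0.15 (SE), with a 95% interval of 79.1% to 124% of the LM level, the smallest standard error of the 9 genes. That standard error is moderated by limma and does not rank the agreement between replicates. For Cops6 the KO replicates were 0.23 apart and the LM replicates 0.07, against 0.17 and 0.11 for Cops5. The dimmer probe set, 1451367_at, read 132 and 285 on the arrays labelled KO, against 132 and 272 on the arrays labelled LM. It was higher on the replicate 2 array of each genotype and alike between the genotypes, with a difference of 0.01 ± 0.41 (SE).

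Cops2 and Cops4 encode PCI subunits that hold the cullin substrate in the complex. Probe set 1423459_at for Cops2 read 1884 and 1282 on the arrays labelled KO, against 1262 and 1523 on the arrays labelled LM. KO replicate 1 was the highest array and KO replicate 2 lay within the LM range, which makes this the gene with the widest gap between KO replicates, 0.53 on the log2 scale. The difference, 0.17 ± 0.20 (SE, limma adjusted p = 0.891), was the highest of the 9 genes, and it was -0.09 without KO replicate 1 and 0.43 with that array kept and KO replicate 2 left out. The groups also overlapped for the other probe set of Cops2, 1437039_at, which gave 661 and 768 on the arrays labelled KO, against 704 and 567 on the arrays labelled LM, a difference of 0.18 ± 0.21 (SE). Cops4 is measured by 1 probe set, 1416163_at, with 1733 and 1522 on the arrays labelled KO, against 1890 and 1737 on the arrays labelled LM. The KO values were the lower ones as deposited, but after normalization KO replicate 1 lay just above LM replicate 2, so the groups overlapped. The Cops4 difference was -0.15 ± 0.15 (SE), with a 95% interval of 71.3% to 114% of the LM level.

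Gps1 encodes subunit 1 of the complex, a PCI protein whose gene was named for suppressing G protein signalling. Its probe set 1415699_a_at read 638 and 761 on the arrays labelled KO, against 819 and 816 on the arrays labelled LM. The LM replicates agreed to within 0.02 on the log2 scale while the KO replicates were 0.23 apart, and the groups did not overlap. The difference of -0.22 ± 0.19 (SE, limma adjusted p = 0.850) was below the gap between the KO replicates. Cops3, another PCI subunit, read 1542 and 1166 with its brightest probe set 1416678_at on the arrays labelled KO, against 1477 and 1303 on the arrays labelled LM. The KO values lay outside the LM values on both sides, and the difference was -0.05 ± 0.18 (SE). Cops3 has 3 dimmer probe sets, none above 312 on any array and the dimmest near the background of 83.4 to 109, with differences of 0.23 ± 0.33 for 1441156_at, -0.49 ± 0.39 for 1443570_at and -0.43 ± 0.34 for 1458259_x_at (SE). The groups of the last 2 of these did not overlap between the genotypes and were lower on the arrays labelled KO. By its suffix, the signal of 1458259_x_at may not be Cops3 alone.

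Cops7a and Cops7b encode paralogues, of which 1 at a time is thought to occupy the same place in the complex. For Cops7a, probe set 1429078_a_at read 993 and 736 on the arrays labelled KO, against 798 and 917 on the arrays labelled LM. The LM values lay between the KO values, with a difference of 0.01 ± 0.21 (SE). Cops7b, by probe set 1418721_at, read 1457 and 1763 on the arrays labelled KO, against 1614 and 1902 on the arrays labelled LM. The ranges overlapped, and the difference was -0.12 ± 0.17 (SE). The dimmer probe set of each paralogue gave a higher value on the KO side, 0.32 ± 0.24 for 1423245_at of Cops7a and 0.68 ± 0.43 for 1418720_at of Cops7b (SE). That Cops7b probe set read 157 and 334 on the arrays labelled KO, against 221 and 79 on the arrays labelled LM. LM replicate 2 was below its background of 85.2 there, and the difference was 0.09 without that array. The mean of both probe sets moved Cops7b to 0.28, across 0.

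Cops8 encodes the smallest of the PCI subunits. Its only probe set, 1415934_at, read 755 and 616 on the arrays labelled KO, against 768 and 1123 on the arrays labelled LM. LM replicate 2 stood above the other 3 arrays, while LM replicate 1 was level with KO replicate 1, and the groups overlapped after normalization. The difference was -0.43 ± 0.23 (SE, limma adjusted p = 0.690), the same size as that of Cops5 but with the widest gap between LM replicates of the 9 genes, 0.56 on the log2 scale. Without LM replicate 2 it was -0.14, and without LM replicate 1 it was -0.71.

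**Figure D2:**
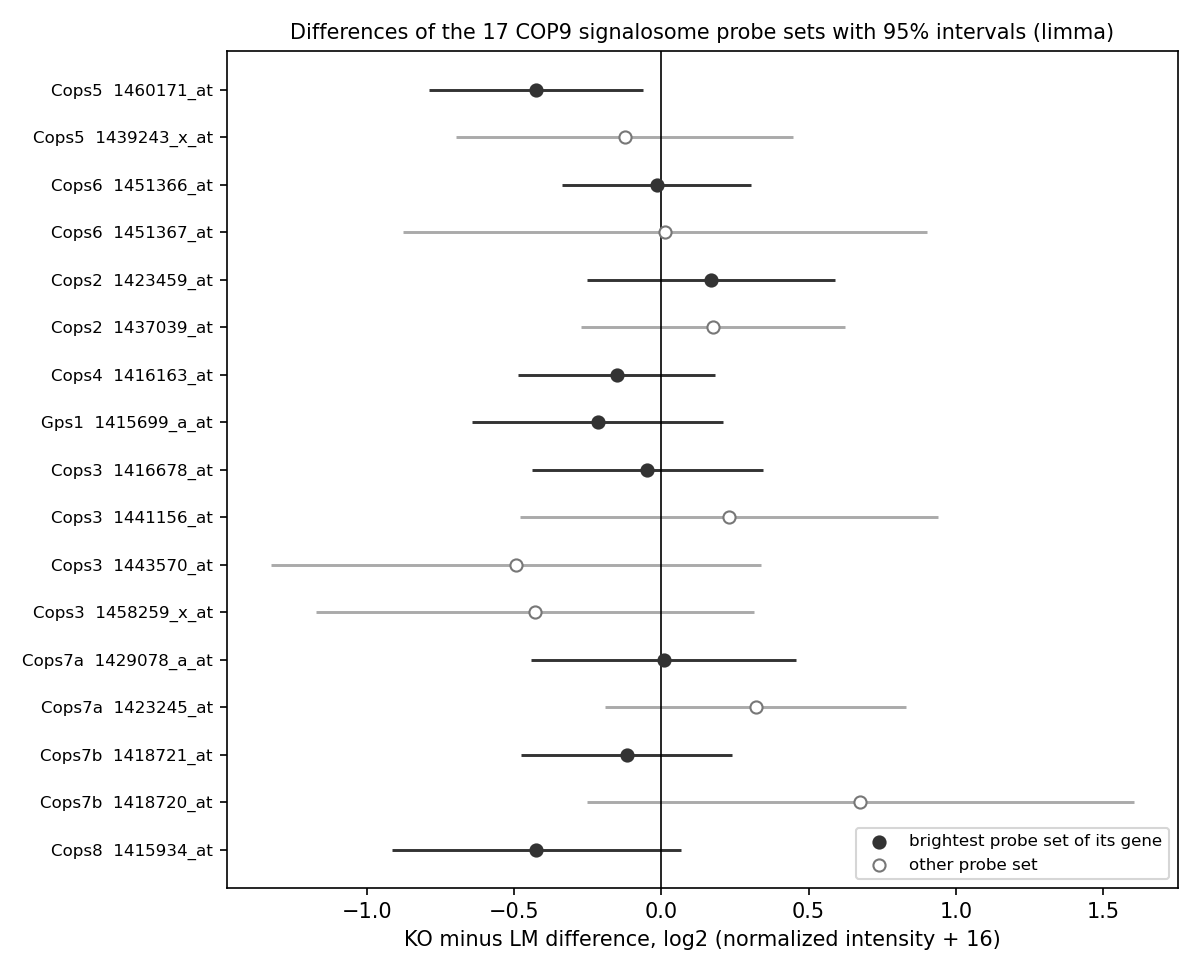
KO minus LM difference (horizontal axis, log2 of normalized intensity plus 16) of each of the 17 COP9 signalosome probe sets with its 95% interval from limma, filled for the brightest probe set of a gene and open for the others. The interval of 1 probe set, 1460171_at of Cops5, ends below 0, at -0.06, and the dim probe sets have the widest intervals.

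Over all 17 probe sets, 0 passed in the fit to every probe set above background, where 0.229% of 21793 were called, and 16 of the 17 were above background on all 4 arrays. Probe sets with KO lower numbered 10 and those with KO higher 7. The groups did not overlap for 4 probe sets, all lower on the arrays labelled KO, beside 36.7% of all probe sets tested in either direction and 18.5% with KO lower. Of the 6 genes with more than 1 probe set, all probe sets lay on the same side of 0 for Cops2, Cops5 and Cops7a, and on both sides for Cops3, Cops6 and Cops7b.

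The precision sets what could have been called. At its own standard error, a gene of the complex needed a difference of 0.83 (Cops6) to 1.27 (Cops8) to reach the largest unadjusted p that was called, 0.000118, which is a 1.77-fold to 2.41-fold change. Observed differences smaller than these would not have been called at these standard errors and that cutoff. Both come from this fit with 2 arrays per genotype, and they do not fix the true change that could be found. The lower ends of the 95% intervals lay between 52.9% (Cops8) and 83.6% (Cops2) of the LM level, and the upper ends between 95.6% (Cops5) and 151% (Cops2).

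The subunits also varied between arrays of 1 genotype. KO replicate 1 was the highest of the 4 arrays for 4 of the 9 genes and the lowest for 2, and KO replicate 2 was the highest for 0 and the lowest for 6. LM replicate 1 was the highest for 1 and the lowest for 1, and LM replicate 2 the highest for 4 and the lowest for 0. The median deviation of the 9 genes from their own means over the 4 arrays was 0.01 on KO replicate 1 and -0.18 on KO replicate 2, against -0.03 on LM replicate 1 and 0.11 on LM replicate 2. Over all genes tested the same quantity lay between -0.01 and 0.01 on each array, which quantile normalization largely sets. The KO replicates were further apart than the LM replicates for 8 of the 9 genes, Cops8 being the exception, beside 54.3% of all genes tested. The median difference of the 9 genes was -0.21 once KO replicate 1 was left out, and -0.07 when the array left out was KO replicate 2. The ratio of the 3′ to the 5′ Gapdh control probe set, a sign of RNA length, was 2.59 and 2.70 on the arrays labelled KO, against 2.63 and 2.93 on the arrays labelled LM, and its part in this pattern was not tested. Cops5, Cops8, Gps1 and Cops4 were lower on the KO side with any 1 array left out. For Cops5 and Gps1 this adds little, since groups that do not overlap keep their order when an array is dropped. Cops4 and Cops8 were also just separate as deposited. Cops2, Cops3, Cops6, Cops7a and Cops7b changed sign in at least 1 of the fits with an array left out.

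**Figure D3:**
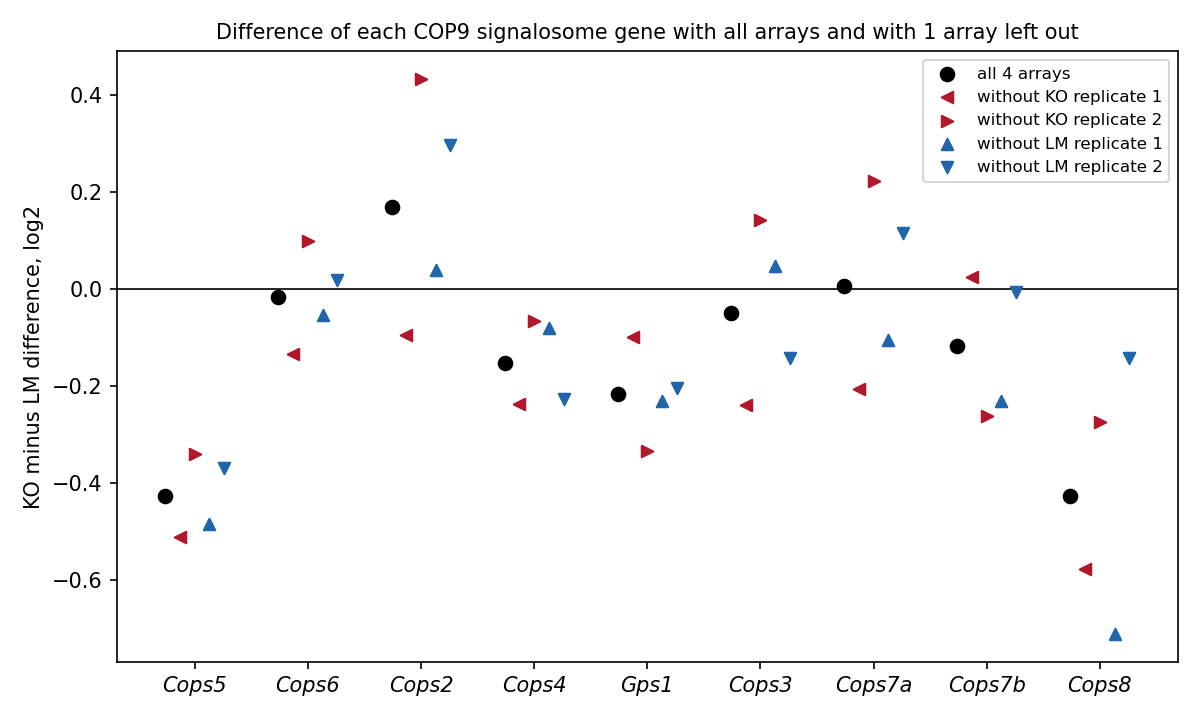
KO minus LM difference (vertical axis, log2) of each COP9 signalosome gene with all 4 arrays (black) and with 1 array left out (red triangles, a KO array left out; blue triangles, an LM array left out). The Cops5 values stay between -0.51 and -0.34, and those of Cops8 spread from -0.71 to -0.14.

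The genes around the complex were counted in the same fit. Their lists were drawn from general knowledge of the field, but with earlier results of these data known. Cops9, the small acidic subunit that the list of members above leaves out, read 6854 and 6130 on the arrays labelled KO, against 6314 and 7015 on the arrays labelled LM, a difference of -0.03 ± 0.09 (SE). These values are from its brightest probe set, 1434823_x_at, whose groups overlapped, as did those of 7 of the 9 other subunits. By the suffix of that probe set, its signal may not be Cops9 alone. The groups also overlapped for 1433516_a_at of Cops9, with a difference of -0.03 ± 0.10 (SE). They did not overlap for its dim probe set 1433517_at, which differed by -0.35 ± 0.35 (SE). That probe set read 140 and 118 on the arrays labelled KO, against 162 and 160 on the arrays labelled LM, near the background of 83.4 to 109. Among all probe sets tested the groups did not overlap for 36.7%, and for 18.5% with KO lower. Among the cullins, which the complex acts on, 0 of 8 tested were called, with a median of 0.12 and a range of -0.01 to 0.47. The smallest p-values there belonged to Cul4a (0.24), Cul2 (0.31) and Cul9 (0.47). The groups did not overlap for these 3 of the 8, all with KO higher. Among all genes tested the groups did not overlap for 37.4%, with KO higher for 19.1%. Cul9 was dim, with 115 and 212 on the arrays labelled KO, against 117.5 and 93.1 on the arrays labelled LM. Background was 83.4 to 109 by array. The Cul9 groups overlapped as deposited and were just separate after normalization. For NEDD8 conjugation and exchange, 0 of 13 tested were called and the median was -0.02. Ube2f, a NEDD8-conjugating enzyme, differed by 0.37 ± 0.18 (SE, limma adjusted p = 0.629), while NEDD8 itself (Nedd8, -0.07) and the cullin exchange factor Cand1 (-0.02) lay near 0. Dcun1d2 (-0.32) and Dcun1d5 (-0.18), which promote NEDD8 transfer, were next in order of p. Of the proteins that bind the complex, 0 of 9 tested were called, with a median of -0.05. They were led by the casein kinase subunit Csnk2a1 (-0.18), Commd1 (0.20) and Dcaf1 (-0.28).

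The proteasome lid and the translation factor eIF3 are built from the same PCI and MPN domains as the COP9 signalosome. For the lid 0 of 9 tested genes were called, with a median of 0.07, and its JAMM protease Psmd14 had the smallest p there and differed by -0.22 ± 0.12 (SE, limma adjusted p = 0.685). Psmd12 (0.24) and Psmd7 (0.25) were the next lid genes by p. For eIF3 0 of 11 were called, with a median of 0.01, led by Eif3l (-0.33), Eif3f (0.17) and Eif3c (-0.08). Among 6 other proteins with a JAMM or MPN domain 0 were called, with a median of -0.05. At an unadjusted p below 0.05 lay 1 of them. This was Brcc3, the deubiquitinase of the BRISC complex, which differed by -0.46 ± 0.19 (SE, limma adjusted p = 0.525), followed by Mpnd (-0.31) and Stambp (0.30). Genes whose proteins are reported to be bound or controlled by Cops5 had 0 of 14 called and a median of -0.01. At an unadjusted p below 0.05 lay 3 of the 14, beside 8.39% of all genes tested, but 1 with median centring and 0 without the eBayes trend or with the mean of all probe sets. The NF-kappa-B inhibitor Nfkbia differed by 0.25 ± 0.08 (SE, limma adjusted p = 0.351), the AP-1 factor Jund by -0.23 ± 0.09 (SE) and the TGF-beta inhibitor Smad7 by 0.53 ± 0.23 (SE). In the cullin, NEDD8, bound protein, lid and eIF3 lists 0 genes lay at an unadjusted p below 0.05. None of these lists was compared with the COP9 signalosome by a test, so the medians are descriptions.

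**Figure D4:**
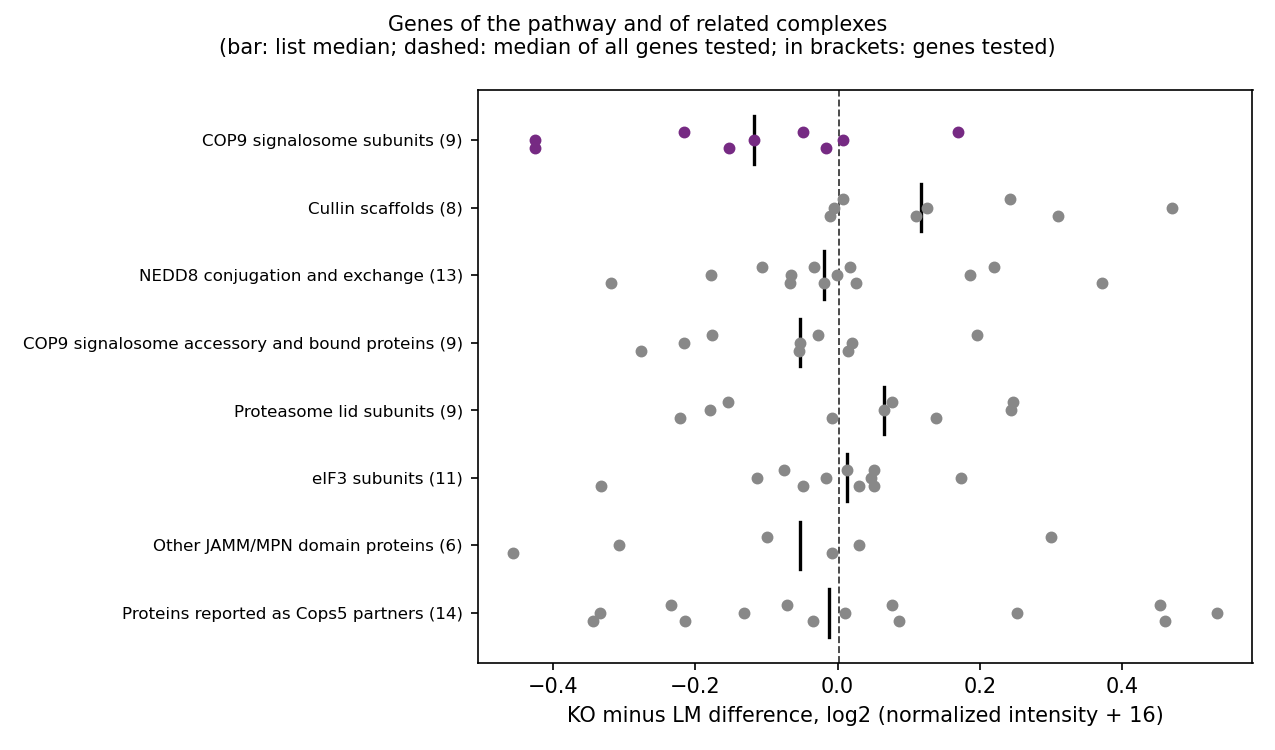
KO minus LM difference (horizontal axis, log2 of normalized intensity plus 16) of each tested gene of the COP9 signalosome (purple) and of 7 related lists (grey), with a bar at each list's median and a dashed line at the median of all genes tested, 0.00. The COP9 signalosome has a median of -0.12 and the cullins of 0.12, and the spreads overlap.

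The promoters of the subunit genes were read for features of sequence that they share. RefSeq windows on GRCm38.p6, running from 250 bases before to 50 bases after a start, were taken from a table that holds 8 of the 9 genes, with 10 windows in all. Cops5 is not in that table and is not analysed here for sequence. Windows of the 8 genes had a median GC content of 59.3% and a median of 25 CpG dinucleotides, beside 56.3% and 13 over 21263 windows of protein-coding genes. The ETS core CCGGAA, searched on both strands, was present in 7 of the 10 windows, beside 18.7% of the coding windows. By gene it was present in 6 of the 8, and the share over all genes was not counted. The 2 windows of Gps1 overlap and hold the same 2 copies, while of the 2 Cops7a windows 1 holds 3 copies and the other 0. A TATA box, TATAAA, was in 0 of the 10, beside 12.6%, and a GC box, GGGCGG, in 7 of the 10, beside 46.2%. Of 6 further motifs, CCAAT was in 1 window (38.2% of the coding windows), CACGTG in 2 (7.84%), GCCATNTT in 2 (6.37%), TGANTCA in 1 (6.99%), and the NRF1 palindrome (8.57%) and TGACGTCA (2.23%) in 0. All were searched separately on both strands, and a match describes letters and not a bound site. The ETS core holds a CpG, and whether the higher CpG content goes with its share was not tested. The starts of Cops2, Gps1 and Cops7b lie head to head with those of Galk2, Rfng and Pde6d. Below, the 150 bases before the start are shown for 3 of the 4 genes whose stretch holds the ETS core, to show its spacing, and for Cops7b, whose window holds none. They are read 5′ to 3′ on the gene's strand, with the core in capitals on either strand.
Cops2 (chr2:125859083-125859232, minus strand): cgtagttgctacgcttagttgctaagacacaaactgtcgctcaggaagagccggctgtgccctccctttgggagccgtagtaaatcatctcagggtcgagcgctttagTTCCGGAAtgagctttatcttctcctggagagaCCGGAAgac
Cops7a (chr6:124965513-124965662, minus strand): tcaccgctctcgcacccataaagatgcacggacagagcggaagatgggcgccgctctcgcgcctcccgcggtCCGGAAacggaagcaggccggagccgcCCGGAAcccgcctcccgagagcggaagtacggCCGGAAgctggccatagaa
Cops8 (chr1:90603275-90603424, plus strand): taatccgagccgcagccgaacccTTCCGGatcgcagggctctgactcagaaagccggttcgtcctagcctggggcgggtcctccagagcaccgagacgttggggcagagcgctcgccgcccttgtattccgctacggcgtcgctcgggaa
Cops7b (chr1:86582771-86582920, plus strand): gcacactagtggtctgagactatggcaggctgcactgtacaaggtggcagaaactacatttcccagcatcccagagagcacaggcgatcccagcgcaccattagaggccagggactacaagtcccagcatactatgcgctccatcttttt
The stretches of Cops2 and Cops7a hold 3 copies of the core each, of which 2 overlap on opposite strands in TTCCGGAA of Cops2, and that of Cops8 holds 1. Of the 8 genes with a window, the 6 with the core differed between the genotypes by -0.43 (Cops8), -0.22 (Gps1), -0.15 (Cops4), -0.05 (Cops3), 0.01 (Cops7a) and 0.17 (Cops2), and the other 2 by -0.12 (Cops7b) and -0.02 (Cops6). The values of the genes without the core lie within the range of those with it.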

How the data were processed

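CD4 single-positive thymocytes were profiled on 4 one-colour arrays, 2 labelled KO and 2 labelled LM. Each probe set has 1 linear intensity on each array in the table the authors deposited (0.1 to 43129). Each array had a mean of 500 after 2% of the values at each end were left out, so the deposited intensities had been scaled. Per the labels' protocols, Trizol RNA went through Nugen's WT-Ovation Pico amplification before biotin labelling. How probes were summarised is not given in the sources used here.

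The 64 control probe sets were left out, and names came from the 34945 probe sets with 1 symbol in the platform annotation (932 had several, 9160 none). Values were taken as log2(intensity + 16), which understates changes of dim genes, and quantile normalized, since array medians differed by 0.16. The brightest probe set stood for its gene. A gene was tested if above background, the 95th percentile of the signal of 80 probe sets for olfactory or vomeronasal receptors (83.4 to 109 by array), on at least 2 arrays, which kept 11253 genes. KO minus LM was fitted with limma 3.58.1 in R 4.3.3 (eBayes with trend), genotype as the only term, with Benjamini-Hochberg adjustment over all genes tested and a two-sided threshold of 0.05; 95% intervals come from the same fit. The number of arrays limits the precision, and an exact permutation test with 2 arrays a group cannot go below 0.333. Promoter windows were read in Python 3.11.15. Alternatives were other filters, normalizations, pseudocounts, moderation settings and thresholds, the mean of all probe sets, a replicate block and each array left out. All 9 subunits with every probe set, Cul3, Cops9, Cand1, Nedd8 and the 3 genes with the smallest p of each related list are named. Members and lists were chosen with earlier results of these data known. Of list genes, Ube2m, Csnk2b, Eif3g, Eif3j1, Eif3j2 and Trp53 are not analysed here.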

Additional observations from a re-analysis of the deposited data

How the results depend on the processing

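With limma, 0 COP9 signalosome genes and 0 of their probe sets passed under every alternative run, and likewise 0 genes of the 7 related lists; 0 to 2 of the 9 genes lay at an unadjusted p below 0.05. The median difference of the 9 genes stayed below 0, between -0.21 (KO replicate 1 left out) and -0.07 (KO replicate 2 left out). Calls over all genes were 31 and became 0 without the filter on dim genes (1247 at an unadjusted p below 0.05), 0 without the eBayes trend (921), 81 with median centring, and 53, 68 and 85 without KO replicate 1, LM replicate 1 and LM replicate 2. With the replicate number as a block they were 43, with 0 for the complex and a median difference of -0.12. Deviations of replicates of the same number were not correlated across genes (r = -0.02). That value cannot show whether samples of the same number were handled as a pair, which the sample titles do not say. Of 126 gene values under alternatives 115 kept their direction and 11 did not, and of 220 probe set values 204 did and 16 did not, none of them called. Cops7a turned to -0.0013 without normalization and to -0.051 with median centring, where the median of all genes was -0.05, Cops6 probe set 1451367_at to -0.020 with median centring, and Cops7b to 0.28 with the mean of both probe sets. With 1 array left out, Cops2 ran from -0.093 to 0.43, Cops3 from -0.24 to 0.14, Cops6 from -0.13 to 0.10, Cops7a from -0.21 to 0.22 and Cops7b from -0.26 to 0.024, and the dimmer probe sets 1441156_at (Cops3) from -0.24 to 0.69, 1439243_x_at (Cops5) from -0.39 to 0.15 and 1451367_at (Cops6) from -0.52 to 0.53. The cause was not tested, other than that these fits hold fewer arrays and that the lone array is assumed to vary like the other group. The dimmest probe sets of Cops3, Cops6 and Cops7b read 98.9, 132 and 79.3 on their lowest arrays, beside a background of 83.4 to 109. Whether low signal had a part in the changes of sign was not tested.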

Other observations

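The dim probe set 1451367_at of Cops6 followed the replicate number and not the genotype: the replicate 2 arrays read 285 (KO) and 272 (LM), and the replicate 1 arrays 132 (KO) and 132 (LM). Background on the replicate 1 arrays was 97.45 (KO) and 108.67 (LM), so those values were near it. The brighter Cops6 probe set, 1451366_at, read 1834 (KO) and 2090 (LM) on the replicate 2 arrays and 2190 (KO) and 1965 (LM) on the replicate 1 arrays. After normalization the replicate numbers also separated for 1418721_at of Cops7b, higher on the replicate 2 arrays. They separated too for 1416678_at (Cops3), 1416163_at (Cops4) and 1423245_at (Cops7a), lower on the replicate 2 arrays. The remaining COP9 signalosome probe sets did not separate this way, and the share over all probe sets was not counted. Both windows of Cops9, the subunit outside the 9 genes, overlap and hold the same 2 copies of the ETS core.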
